A study of Sus scrofa with 22 samples.

Results

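The genes described here are 60 pig genes of the cell division cycle and of DNA replication, followed through 22 RNA-seq libraries of tongue tissue and of organoids grown from it. They were chosen by name from a list of well-known cycle genes, with earlier results of these data known. All 60 were among the 27376 genes counted in 16 libraries and the 29850 counted in the other 6. By role they fell into 9 G1 genes (D-type and E-type cyclins, their kinases and the phosphatase CDC25A), 2 inhibitors of these kinases, 4 transcription factors, 17 genes of S-phase replication and 28 genes of mitosis.

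In a dividing cell, D-type cyclins with CDK4 or CDK6 receive growth factor signals in G1 and start to inactivate the RB proteins, and cyclin E with CDK2 completes that step. E2F factors are then free to switch on the replication genes, whose products load the MCM helicase on origins, make nucleotides and copy DNA. Later in the cycle MYBL2 and FOXM1 switch on the mitotic genes, whose mRNAs peak in G2 and mitosis and are low in resting cells. In the tongue, cells at the base of the epithelium divide and renew both the keratinised surface and the taste buds.

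The study asked how organoids from pig foliate papillae, the taste-bud-bearing folds at the side of the tongue, differ from the papillae themselves and how medium changes them. Passage 1 organoids of 5 pigs, grown in the medium LPM, stood beside the native foliate papillae of the same 5 pigs. In a second set, 3 organoid libraries grown in LPM(-)FGF10 stood beside 3 grown in LPM. In the other set, 3 libraries of cultures kept in LPM from day 0 and moved to CQ from day 10 until day 16 or 17 stood beside 3 of cultures kept in LPM only.

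The protocols in the labels list 3 growth factors in LPM, FGF10 at 100 ng/ml, EGF at 50 ng/ml and FGF2 at 10 ng/ml, beside Wnt, hedgehog and small-molecule supplements, so that cultures without FGF10 still received EGF and FGF2. The labels name the organoids a foliate cell line. The sources used here do not give the age, sex and breed of the pigs, what LPM and CQ stand for or what CQ contained. The harvest day of the LPM cultures of the CQ set is likewise not given, so culture age and medium cannot be told apart there. Papillae and organoids were extracted with different kits, so kit and source of RNA cannot be told apart in that comparison. The FGF10 libraries are labelled biological replicates, those of the CQ set are only numbered, and neither label names the pig. Their p-values therefore measure only the spread between these libraries, which may be technical.

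Libraries held 14667093 to 27767229 counts. The CQ libraries were the smallest, with 14667093 to 16004815 counts and 14014 to 16005 genes detected, against 19619774 to 26009974 counts and 17489 to 17920 genes in the LPM libraries beside them. Among genes with a mean of 10 to 30 counts, the median ratio of variance to mean was 12.6 in CQ, 1.73 in the LPM libraries of that set, and 1.13 to 4.87 in the other 4 groups, so low counts in CQ varied more between libraries than in any other group. Levels below are CPM, counts scaled to a common library total, after TMM scaling within each comparison, and a gene was called where edgeR's quasi-likelihood test gave a Benjamini-Hochberg adjusted p under 0.05 over all genes. Where groups are said not to overlap, this describes the libraries alone. The share of all genes without such overlap was not counted. In such bulk libraries, fewer dividing cells and less mRNA per cell cannot be told apart.

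Papilla libraries also held other tissue. Summed fibroblast markers ranged from 87.6 to 209 CPM in organoids and from 1972 to 7181 CPM in papillae, with 7 of 8 lower in organoids. Summed suprabasal epithelial markers ranged from 155 to 1353 CPM in organoids and from 20685 to 45139 CPM in papillae, and 7 of 7 were lower in organoids. Gland markers were lower in organoids in 6 of 6 (1.58 to 10.3 CPM in organoids, 47101 to 246739 CPM in papillae), muscle markers in 9 of 9 tested of 10 (0.697 to 3.85 and 272 to 8127 CPM), endothelial markers in 7 of 8 (33.9 to 127 and 468 to 677 CPM) and immune markers in 7 of 11 tested (46.4 to 116 and 122 to 455 CPM). PTPRC, CD3E, CD3D, CD163, MYH1, MYH2, DES and MYOD1 had 0 counts in every organoid library. Basal epithelial markers were present in both, at 3601 to 7371 CPM in organoids and 10170 to 12974 CPM in papillae, with 3 of 6 higher and 3 lower in organoids. Taste markers summed to 1738 to 3573 CPM in organoids and 546 to 767 CPM in papillae, with 3 of 10 higher and 4 lower. The part of these differences in the results below was not tested.

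**Figure D1:**
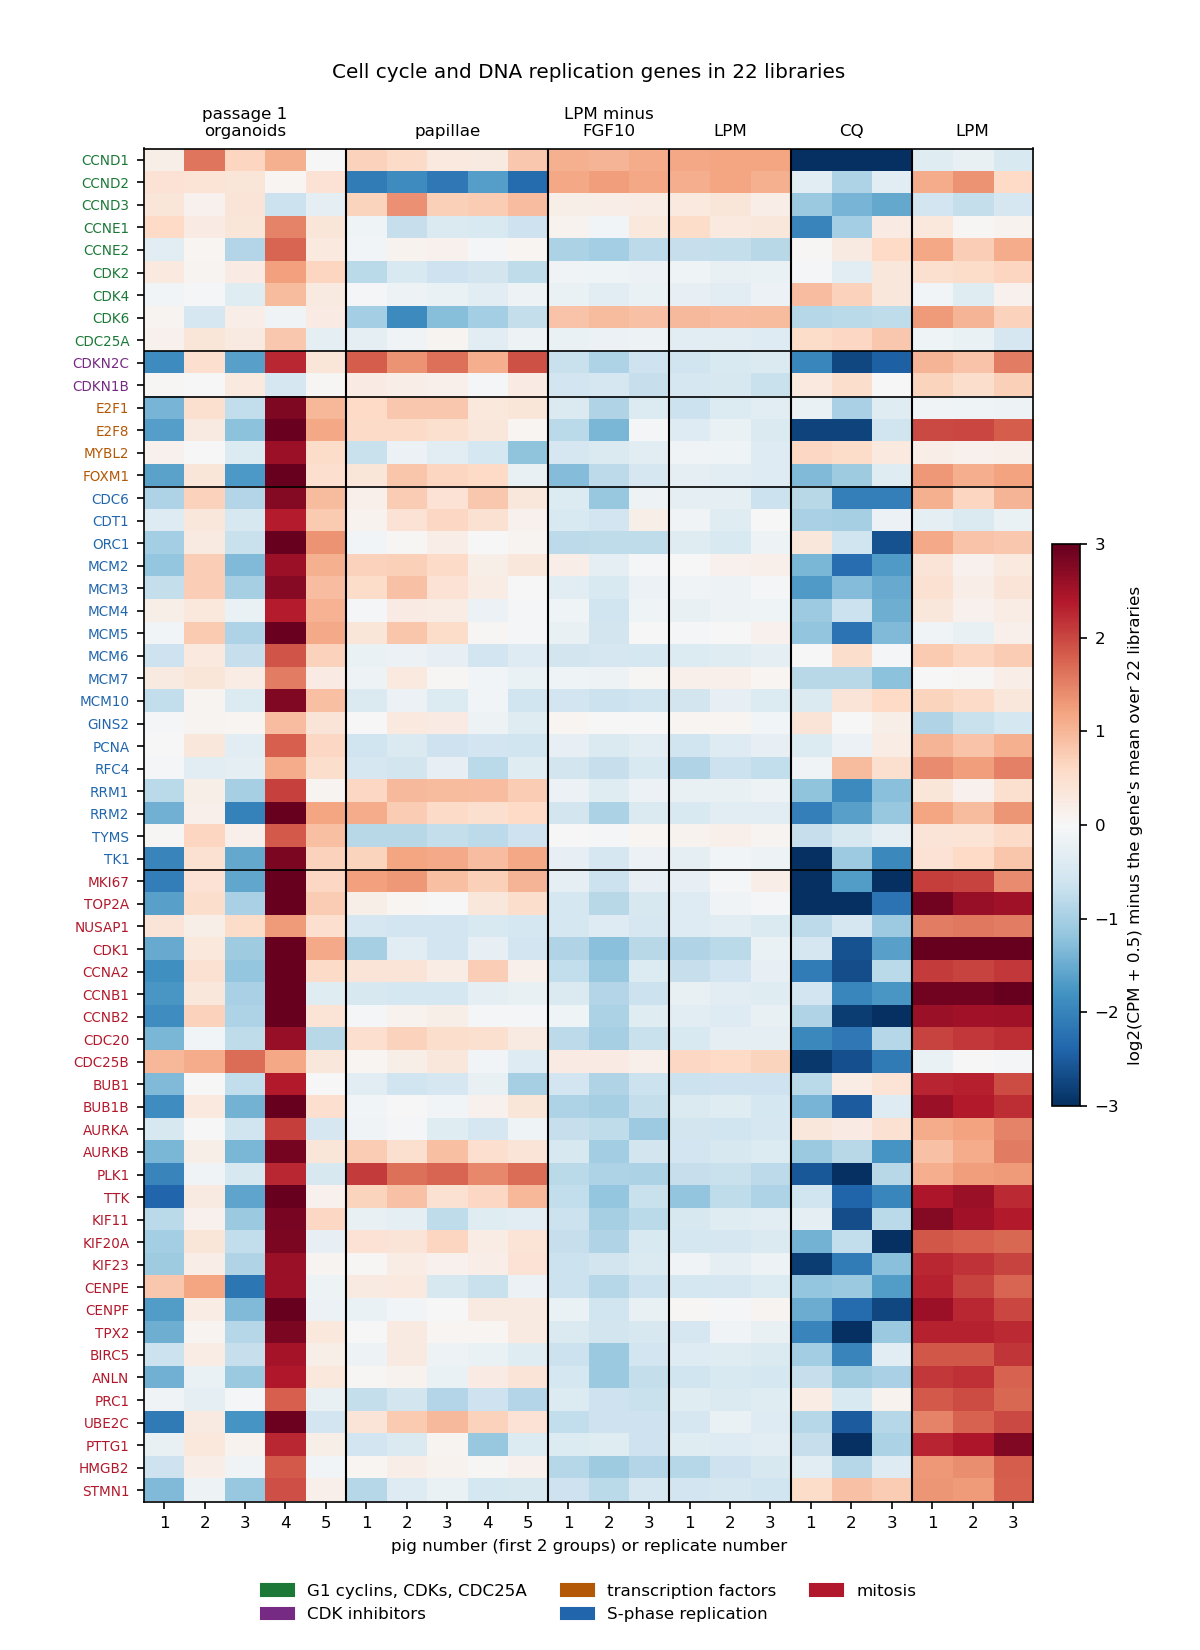
Colour gives log2(CPM + 0.5) of each of 60 genes (rows, coloured by role) in each of 22 libraries (columns, by group), minus that gene's mean over all libraries, with TMM scaling over all libraries and colours clipped at 3 on either side. The organoids of pig 4 and the LPM libraries of the CQ set (far right) hold most of the highest mitotic values, and CQ the lowest CCND1.

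Levels per kilobase of exon can be compared between genes. CDK4, the mitotic genes HMGB2 and STMN1 and the replication genes PCNA and TYMS were among the most abundant of the 60, in an order that differed between groups. The D-type cyclins ranked high in some groups only: CCND2 was at 6.19 ± 1.17 CPM per kilobase in papillae and CCND3 at 4.58 ± 0.71 in CQ (SD). In papillae CDK4 averaged 49.8 ± 3.90 CPM per kilobase, HMGB2, a chromatin protein that is abundant in dividing cells, 42.1 ± 1.80, and CCND1 41.8 ± 7.03 (SD, n = 5). The origin licensing factor CDC6 was at the other end there, at 0.50 ± 0.11 CPM per kilobase, and the kinase CDK1 was at 0.69 ± 0.14. In passage 1 organoids D-type cyclins were far more abundant than E-type cyclins. There CCND1 averaged 50.5 ± 23.8, CCND2 33.2 ± 3.35 and CCND3 12.1 ± 3.47 CPM per kilobase, against 3.28 ± 1.44 for CCNE1 and 1.5 ± 1.31 for CCNE2 (SD, n = 5). In CQ CCND1, at 1.8 ± 0.52, lay near CCNE2, at 1.32 ± 0.28, while CCND2 was at 18.2 ± 4.15 CPM per kilobase (SD).

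In passage 1 organoids 17 of the 60 genes rose relative to papillae and 1 fell, and most replication and mitotic genes were not called. Over all 16311 genes tested, 32.4% were called higher and 35.1% lower, so the share of cycle genes that rose lay near the background and the share that fell lay below it. The median log2 fold change of the 60 was 0.90, against -0.01 over all genes. That median rested on the organoids of pig 4: without this library 12 rose and 7 fell, the median was -0.06, and the background was 32.7% higher and 36.8% lower. With the pig as a block, which compares each organoid library with the papilla of its own pig, 10 rose and 2 fell, the median was 0.22, and the background was 30.4% and 35.1%. Leaving out single papillae also took calls away, down to 11 that rose without the papilla of pig 4, where CDC25A, CDK1, MCM4, MCM7, MCM10 and PTTG1 were lost. Scaling by library size alone moved the median of all genes to 0.28, and 25 of the 60 genes then rose and 1 fell, with 6771 of all genes higher and 4592 lower in place of 5281 and 5730.

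Among the G1 genes 5 of 9 rose, a share above the 32.4% of all genes called higher, and 1 fell. The D-type cyclin CCND2 (Sscrofa11.1 chromosome 5, 66092483 to 66114575, minus strand) had 40.9, 40.1, 40.1, 31.4 and 41.7 CPM in the organoids of pigs 1 to 5, against 6.43, 7.57, 6.34, 9.09 and 5.70 CPM in their papillae. Every organoid library lay above every papilla, and the log2 fold change was 2.47 (adjusted p = 2.7e-07), the largest among the 60 genes. CCND3 (chromosome 7, 37087336 to 37182462, minus strand) went the other way, with 59.9, 50.4, 61.9, 29.0 and 39.1 CPM in organoids and 70.7, 115, 74.9, 77.7 and 86.9 CPM in papillae. These groups did not overlap either, and CCND3 was the 1 gene that fell (log2 fold change -0.83, adjusted p = 0.00526). CCND3 shares exon positions with the opposite-strand gene TAF8, and counting ignored strand.

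CCND1, the D-type cyclin that many growth factor pathways induce, had 132, 353, 185, 240 and 121 CPM in organoids and 183, 167, 139, 138 and 203 CPM in papillae. The groups overlapped and it was not called (adjusted p = 0.33). As a share of the 3 D-type cyclins per kilobase, CCND2 made up 36.2 ± 9.06% in organoids and 8.99 ± 2.34% in papillae, CCND3 13.1 ± 4.42% and 31.5 ± 4.49%, and CCND1 50.8 ± 12.5% and 59.5 ± 5.58% (SD, n = 5 each).

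Of the kinases that D-type cyclins bind, CDK6 rose, with 87.0, 57.2, 97.3, 75.9 and 99.4 CPM in organoids and 38.7, 20.7, 32.8, 39.9 and 49.5 CPM in papillae (log2 fold change 1.20, adjusted p = 0.000612). CDK4, at 77.4 ± 29.9 CPM in organoids and 57.4 ± 4.14 CPM in papillae, was not called (adjusted p = 0.0934). Of the E-type cyclins CCNE2 was not called, at 2.2 to 15.3 CPM in organoids and 3.8 to 4.6 CPM in papillae (adjusted p = 0.325). The other, CCNE1, and the partner kinase CDK2 both rose without overlap between the groups. CCNE1 had 8.10, 6.19, 6.99, 15.2 and 7.0 CPM in organoids and 4.57, 2.91, 3.65, 3.56 and 3.15 CPM in papillae (log2 fold change 1.29, adjusted p = 0.00162), with the organoids of pig 4 standing above the other organoids. CDK2 had 30.4, 25.9, 29.6, 57.1 and 39.6 CPM in organoids and 13.2, 17.1, 15.3, 16.2 and 14 CPM in papillae (log2 fold change 1.27, adjusted p = 0.000247). CDC25A, the phosphatase that activates CDK2, was called at 14.3 ± 3.91 CPM in organoids and 10.1 ± 1.21 CPM in papillae (SD, n = 5 each; adjusted p = 0.0408), but the groups overlapped and the call was lost with the block (0.0831) and without the organoids of pig 4 (0.0819).

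**Figure D2:**
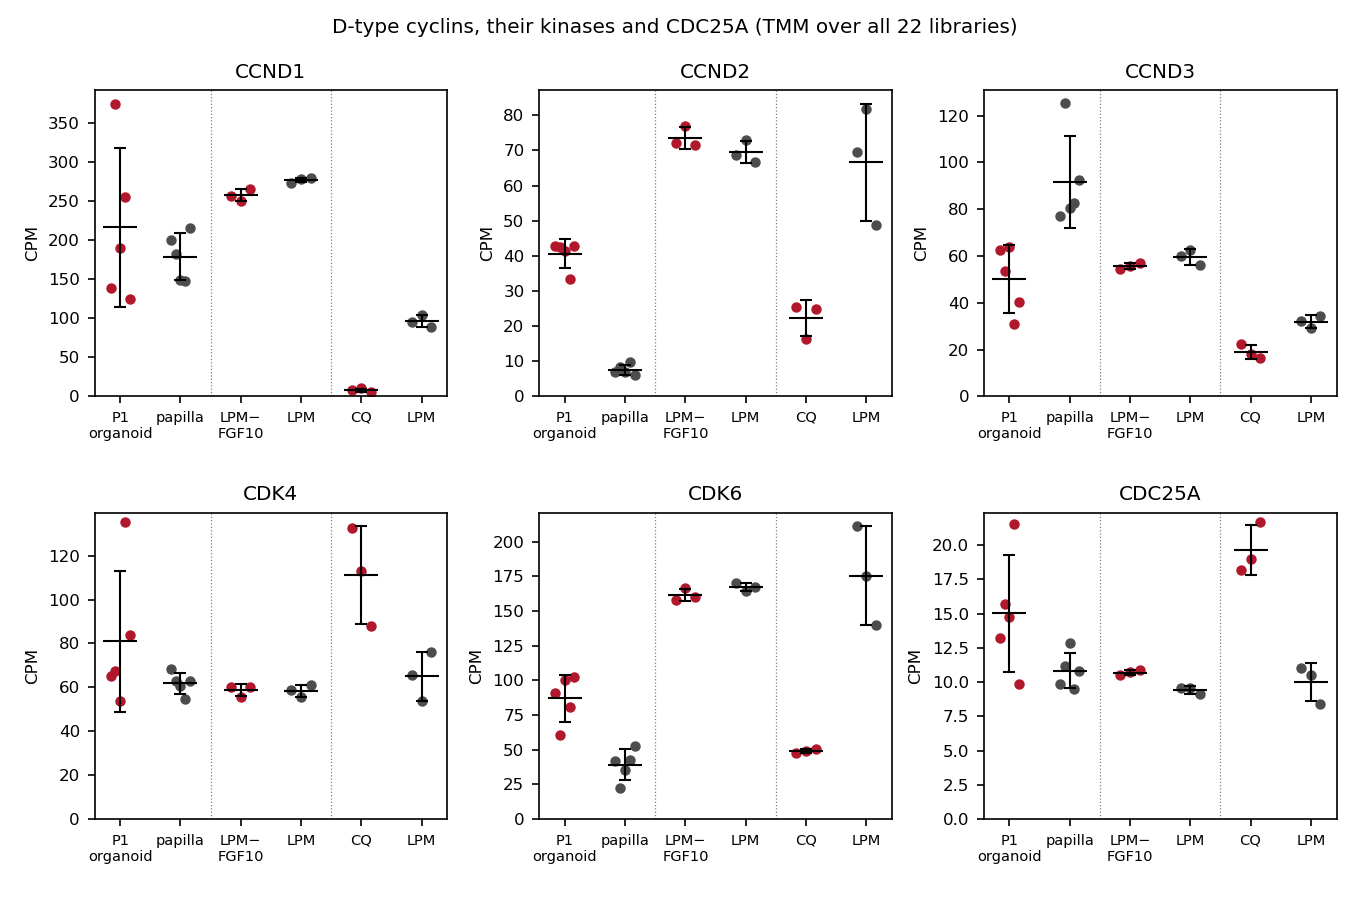
CPM on a scale set over all 22 libraries for 6 G1 genes, 1 point per library, with the mean and SD of each group as bars. CCND2 and CDK6 lie higher in passage 1 organoids than in papillae without overlap, and CQ has the lowest CCND1 and the highest mean CDK4 and CDC25A.

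Neither kinase inhibitor was called by edgeR or DESeq2, and neither had an unadjusted p under 0.05 in edgeR, while limma-voom called 1 of the 2 lower. CDKN1B, which encodes p27 and holds CDK2 inactive, had 37.9, 36.8, 46, 25.3 and 38.1 CPM in organoids and 41.6, 40.6, 40.0, 34.5 and 43.2 CPM in papillae (adjusted p = 0.487), and its direction turned with library size scaling alone (log2 fold change 0.16 in place of -0.12). CDKN2C, which encodes p18 and binds CDK4 and CDK6, was at 1.22 to 29.2 CPM in organoids and 12.7 to 22.7 CPM in papillae. It was not called over all libraries (adjusted p = 0.269), but it fell without the organoids of pig 4 (log2 fold change -1.91, adjusted p = 0.00914).

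Of the transcription factors 1 of 4 rose. MYBL2, which drives late cycle genes, had 36.1, 33.1, 25.3, 195 and 49.6 CPM in organoids, against 20.0, 28.3, 25.4, 22.4 and 13.9 CPM in papillae. The organoids of pig 4 stood far above all others, 1 organoid library lay within the papilla range, and the log2 fold change was 1.63 (adjusted p = 0.0172). Without the organoids of pig 4 it was 0.73 (adjusted p = 0.016), and with the block MYBL2 was not called (0.0529). E2F1, the factor that RB restrains, had 3.91, 15.4, 6.60, 79.6 and 22.9 CPM in organoids and 16.4, 19.2, 19.2, 13.7 and 14.1 CPM in papillae. Organoids lay both below and above the papillae, and it was not called (adjusted p = 0.404). E2F8 and FOXM1 were not called either.

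Of the replication genes 6 of 17 rose, a share near the background, and 3 did with the block. Without the organoids of pig 4, 4 rose and 1 fell. In edgeR 0 of 17 fell, also at an unadjusted p under 0.05, and DESeq2 and limma-voom gave 0 as well. PCNA, the sliding clamp of DNA polymerases (chromosome 17, 14137746 to 14142584, minus strand), had 37.2, 46.3, 29.9, 127 and 57.3 CPM in organoids and 23.2, 26.0, 22.9, 23.9 and 23.6 CPM in papillae. All organoids lay above all papillae, with a log2 fold change of 1.32 (adjusted p = 0.00487). TYMS, which makes thymidylate, had 41.6, 62.6, 45.8, 144 and 77.7 CPM in organoids and 21.7, 21.9, 23.9, 23 and 25.8 CPM in papillae, again without overlap (log2 fold change 1.68, adjusted p = 0.000471).

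The other replication genes that rose were MCM4, MCM7, MCM10 and the clamp loader subunit RFC4, which shares exon positions with EIF4A2 on the other strand. Without the organoids of pig 4, MCM4 (log2 fold change 0.44 in place of 1.07, adjusted p = 0.113) and MCM10 (0.52 in place of 1.60, adjusted p = 0.197) were not called, and with the block RFC4 was not called (0.0543). Of these MCM7, at 102 ± 48.9 CPM in organoids and 63.4 ± 8.94 CPM in papillae (SD, n = 5 each; adjusted p = 0.0301), was also called with the block (0.0472) but not without the papilla of pig 1, 4 or 5, and it shares exon positions with the opposite-strand gene AP4M1. The helicase subunit MCM2 had 7.53, 29.2, 6.86, 105 and 38.0 CPM in organoids and 27.4, 27.8, 25.7, 19.5 and 22.1 CPM in papillae, and was not called (adjusted p = 0.402). RRM2, the regulated subunit of ribonucleotide reductase, had 5.09, 16.0, 3.25, 121 and 34.1 CPM in organoids and 30.9, 23.9, 21.3, 20.1 and 22.1 CPM in papillae, and was not called (adjusted p = 0.51). For both genes the organoids of pigs 1 and 3 lay below every papilla and those of pigs 4 and 5 above every papilla.

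Of the mitotic genes 5 of 28 rose (NUSAP1, CDC25B, PRC1, CDK1 and PTTG1), a share below the 32.4% of all genes called higher. In edgeR and DESeq2 0 of 28 fell, also at an unadjusted p under 0.05 in edgeR, and limma-voom called 1 lower. Without the organoids of pig 4, 3 mitotic genes rose and 4 fell, and PTTG1 lost its call (adjusted p = 0.0525; 0.109 with the block over all pigs). NUSAP1, a spindle microtubule protein, had 44.2, 37.4, 50.3, 81.1 and 49.0 CPM in organoids and 22.6, 21.6, 21.9, 24.0 and 23 CPM in papillae (log2 fold change 1.21, adjusted p = 0.000144). CDC25B, the phosphatase that first activates CDK1 at mitotic entry, had 89.8, 95.9, 146, 98.7 and 57.3 CPM in organoids and 44.6, 48.3, 54.6, 41.5 and 33.2 CPM in papillae (log2 fold change 1.13, adjusted p = 0.000816). In both genes every organoid library lay above every papilla. NUSAP1 shares exon positions with NDUFAF1 and OIP5 on the other strand, and PRC1 with LOC110261561.

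The markers most used for dividing cells were not called or not stable. MKI67, which encodes the Ki-67 antigen (chromosome 14, 137266622 to 137296312, minus strand), had 4.60, 28.1, 6.95, 283 and 32.9 CPM in organoids and 47.6, 50.2, 38.7, 33.9 and 42.0 CPM in papillae. Only the organoids of pig 4 lay above any papilla, and the other organoid libraries lay below every papilla (adjusted p = 0.48 over all libraries). Without the organoids of pig 4 MKI67 was not called (log2 fold change -1.21, adjusted p = 0.0531). It was called lower once both libraries of pig 4 were left out and the pig was a block (-1.72, adjusted p = 0.0244). TOP2A, the topoisomerase that untangles chromosomes (chromosome 12, 22001300 to 22028452, plus strand), had 6.55, 30.8, 10.8, 283 and 36.8 CPM in organoids and 23.2, 21.4, 20.7, 26.6 and 30.4 CPM in papillae (adjusted p = 0.118).

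CDK1, the kinase that drives mitosis, had 2.28, 9.31, 3.39, 69.2 and 17.3 CPM in organoids and 3.34, 5.51, 4.72, 6.11 and 4.76 CPM in papillae. It was called (log2 fold change 2.05, adjusted p = 0.0379), but not with the block (0.187) nor without the organoids of pig 4 (log2 fold change 0.74, adjusted p = 0.216), those of pig 5 or any 1 papilla. Its partner CCNB1 had 2.60, 12.5, 4.93, 80.4 and 7.82 CPM in organoids and 6.67, 6.52, 6.54, 7.82 and 8.31 CPM in papillae (adjusted p = 0.093). In these 2 genes, too, the organoids of pigs 1 and 3 were lower than those of pigs 2, 4 and 5.

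The organoids of pig 4 stood apart through most of the list. They were the highest organoid library for 54 of the 60 genes, against 24.7% of all genes tested, and for 17 of 17 replication and 27 of 28 mitotic genes. By Dixon's test on 5 libraries, at a level that chance passes in about 1 in 20 groups, they stood apart for 44 of the 60 genes, against 4.44% of all genes tested. Their level relative to the median of the other organoid libraries had a median of 8.58 times over the mitotic genes, 8.1 times over the transcription factors, 5 times over the replication genes and 1.51 times over the G1 genes. The summed mitotic genes came to 2452 CPM in these organoids and to 292 to 519 CPM in the other 4 organoid libraries, against 432 to 469 CPM in papillae. The mitotic genes least raised there were CDC25B, at 1.06 times the median of the others, and NUSAP1, at 1.73 times.

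Pig by pig, the median log2 difference between organoids and papilla over the mitotic genes was -1.30 in pig 1, 0.20 in pig 2, -0.89 in pig 3, 2.59 in pig 4 and 0.08 in pig 5. Over the replication genes it was -0.41, 0.07, -0.82, 2.39 and 0.94 in pigs 1 to 5, and over the G1 genes 0.46, 0.58, 0.41, 1.30 and 0.46. The median of the G1 genes was thus above zero in every pig, although in pig 1 only 5 of the 9 were higher in organoids and 4 were lower. The sign of the median of the mitotic genes differed between pigs. The spread between libraries was larger among organoids than among papillae. Over the 60 genes the median SD of log2(CPM + 0.5) was 1.42 among organoids and 0.22 among papillae. Over all genes tested it was 0.31 and 0.24. Without the organoids of pig 4 the median over the 60 genes was still 0.69 among organoids, against 0.27 over all genes. With 1 organoid library per pig, spread between animals and spread between cultures cannot be told apart.

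**Figure D3:**
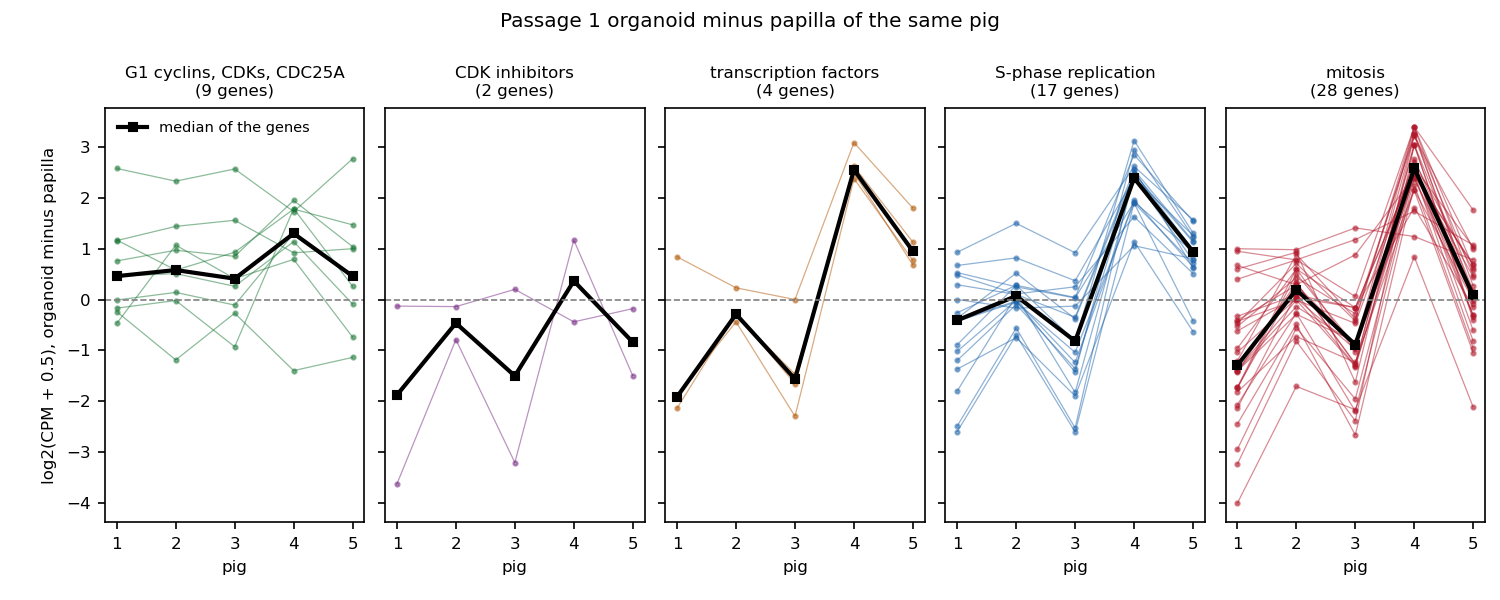
For each pig (horizontal axis), log2(CPM + 0.5) in its organoids minus its papilla is drawn for every gene (thin lines join the values of 1 gene and imply no order of pigs), with the median of each class in black. The median of the G1 genes is above zero in each pig, at 0.41 to 0.58 in 4 pigs and 1.30 in pig 4, and the median of the mitotic genes runs between -1.30 in pig 1 and 2.59 in pig 4.

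Without the organoids of pig 4, the 7 genes that fell were CCND3, CDKN2C, RRM1, CDC20, PLK1, KIF20A and UBE2C. PLK1, a kinase of spindle assembly and mitotic exit, had 3.09, 12.5, 9.68, 66.1 and 9.69 CPM in organoids and 57.4, 42.0, 45.2, 36.6 and 43.9 CPM in papillae. The organoids of pig 4 lay above every papilla and the others below all of them. Once it was left out, the log2 fold change was -2.35 (adjusted p = 0.000116), and with the block over all 5 pigs it was called lower as well (0.0321), as the second gene beside CCND3. PLK1 shares exon positions with ERN2 on the other strand, and KIF20A with CDC23. The 10 genes that rose with the block were CCND2, CCNE1, CDK2, CDK6, MCM7, PCNA, TYMS, NUSAP1, CDC25B and PRC1.

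Other genes of the same pathways were listed by role, with earlier results of these data known. Of 32 further replication genes 16 rose, a share above the 32.4% of all genes called higher. Without the organoids of pig 4 11 rose, a share near the background of 32.7%, and 2 fell. SLBP, which binds histone mRNA, was at 103 ± 12.2 CPM in organoids and 58.6 ± 4.56 CPM in papillae (adjusted p = 5.66e-05) and the clamp loader subunit RFC2 at 67.0 ± 20.3 and 30.5 ± 2.48 CPM (adjusted p = 0.00025). Of 37 further mitotic genes 8 rose, a share below that background, and without the organoids of pig 4 3 rose and 7 fell. The spindle checkpoint gene MAD2L1 was at 31.8 ± 17.3 CPM in organoids and 7.48 ± 0.229 CPM in papillae (adjusted p = 9.52e-05), and RACGAP1, which acts in cytokinesis, at 27.8 ± 21.2 and 11.2 ± 0.857 CPM (adjusted p = 0.00868).

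Among 21 inhibitors, RB family genes and other regulators 7 rose, a share near the background, and 2 fell. Without the organoids of pig 4 the numbers were 7 and 4. CDKN1A, which encodes the CDK inhibitor p21, was at 437 ± 186 CPM in organoids and 118 ± 7.99 CPM in papillae (adjusted p = 0.000134), and the RB relative RBL1 at 44.8 ± 9.73 and 19 ± 3.09 CPM (adjusted p = 5.51e-05). LIN37, of the complex that represses cycle genes in resting cells, fell to 18.4 ± 3.36 CPM in organoids against 29.6 ± 7.13 CPM in papillae (adjusted p = 0.00754). MYC, which drives growth, fell to 41.2 ± 9.42 CPM in organoids against 59.1 ± 4.46 CPM in papillae (adjusted p = 0.0135; SD and n = 5 each throughout).

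Leaving FGF10 out of LPM was followed by small differences, and 3 mitotic genes fell. The background among all 14262 genes tested was 0.582% higher and 1.20% lower. In edgeR 3 of the 60 genes fell and 0 rose, and DESeq2 and limma-voom called the same numbers. At an unadjusted p under 0.05 edgeR had 23 lower and 0 higher. The share of all genes at that unadjusted level is not given, so the unadjusted counts here and below have no background. The fold changes leaned one way: 52 of 60 lay below zero (86.7%, against 49.1% of all genes), with a median of -0.20 on the log2 scale, against 0.00 over all genes. This is a description across genes, which are not independent. Without LPM(-)FGF10 library 2, 51 of the 60 genes kept the sign they had over all libraries. By class the median was -0.27 for mitosis, with 27 of 28 below zero, -0.14 for replication and -0.04 for the G1 genes.

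CDC25B (chromosome 17, 31910824 to 31929418, minus strand) was the clearest, with 54.2, 54.0 and 51.0 CPM in LPM(-)FGF10 and 70.3, 69.2 and 72.9 CPM in LPM (log2 fold change -0.42, SE 0.05, adjusted p = 4.26e-06). CDC20, which activates the anaphase promoting complex, had 8.28, 6.95 and 9.06 CPM in LPM(-)FGF10 and 10.4, 11.7 and 12.0 CPM in LPM (log2 fold change -0.49, adjusted p = 0.0149). TOP2A had 15.1, 12.0 and 15.7 CPM in LPM(-)FGF10 and 16.4, 20.1 and 21.6 CPM in LPM (log2 fold change -0.44, adjusted p = 0.0192). The groups did not overlap in these 3 genes. CDC25B was called in every alternative run, whereas CDC20 and TOP2A lost their calls without LPM(-)FGF10 library 1 or 2 and without LPM library 2 or 3. The number of genes that fell was then 1, except without LPM library 3, where it was 3. Without LPM library 1 it was 5.

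The other mitotic markers were not called. MKI67 had 17.7, 13.6 and 18.2 CPM in LPM(-)FGF10 and 17.8, 20.6 and 24.7 CPM in LPM (adjusted p = 0.0954), and the groups overlapped. CCNB1 had 7.43, 5.29 and 6.44 CPM in LPM(-)FGF10 and 8.59, 8.13 and 7.91 CPM in LPM (adjusted p = 0.17), without overlap. CDK1 had 3.84, 2.90 and 4.13 CPM in LPM(-)FGF10 and 3.86, 4.13 and 6.57 CPM in LPM (adjusted p = 0.385). Library 2 of LPM(-)FGF10 was the lowest of its group for all 3 genes.

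No replication gene was called, although 14 of 17 lay below zero and 6 had an unadjusted p under 0.05 in edgeR, all lower (0 called by DESeq2 or limma-voom). Among the 17, MCM7 had the smallest adjusted p (log2 fold change -0.19, adjusted p = 0.0618), and its groups did not overlap. PCNA had 31.7, 27.7 and 30.3 CPM in LPM(-)FGF10 and 24.4, 28.3 and 31.9 CPM in LPM (adjusted p = 0.741). MCM2 had 20.9, 14.7 and 17.5 CPM in LPM(-)FGF10 and 17.6, 19.5 and 20.2 CPM in LPM (adjusted p = 0.709). RRM2 had 10.1, 7.42 and 11 CPM in LPM(-)FGF10 and 10.6, 11.9 and 12.0 CPM in LPM (adjusted p = 0.32). E2F1 had 8.38, 5.89 and 8.56 CPM in LPM(-)FGF10 and 7.07, 8.47 and 9.11 CPM in LPM (adjusted p = 0.815). These 4 genes overlapped between the groups. FOXM1 did not, at 0.948 to 2.01 CPM in LPM(-)FGF10 and 2.21 to 2.41 CPM in LPM, but it was not called (log2 fold change -0.62, adjusted p = 0.279).

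Among the G1 genes CCND1 had 252, 244 and 263 CPM in LPM(-)FGF10 and 267, 272 and 275 CPM in LPM. The groups did not overlap, but the difference was small (log2 fold change -0.10, SE 0.04) and not called (adjusted p = 0.262). CCND2 had 71.0, 75.0 and 70.8 CPM in LPM(-)FGF10 and 67.1, 71.2 and 65.7 CPM in LPM (adjusted p = 0.481). CCNE1 had 5.84, 4.95 and 6.90 CPM in LPM(-)FGF10 and 7.99, 6.67 and 6.86 CPM in LPM (adjusted p = 0.383). CDKN1B had 25.2, 26.5 and 23.3 CPM in LPM(-)FGF10 and 26.2, 26.7 and 23.6 CPM in LPM (adjusted p = 0.935).

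Summed over the class, the mitotic genes came to 305, 266 and 304 CPM in LPM(-)FGF10 and 337, 357 and 371 CPM in LPM, without overlap. The replication genes came to 348, 311 and 362 CPM in LPM(-)FGF10 and 355, 368 and 369 CPM in LPM. The mitotic sum was 0.857 ± 0.0186 times the replication sum in LPM(-)FGF10 and 0.977 ± 0.0306 times in LPM (SD, n = 3 each). Of the further pathway genes 0 of 21 regulators, 0 of 32 replication and 0 of 37 mitotic genes were called by edgeR, DESeq2 or limma-voom, and at an unadjusted p under 0.05 edgeR had 2 regulators higher, 3 replication genes lower and 13 mitotic genes lower. Of the marker lists, 1 of 6 basal and 1 of 4 suprabasal epithelial markers tested were lower in LPM(-)FGF10 (suprabasal sum 212 to 287 CPM in LPM(-)FGF10, 378 to 451 CPM in LPM; basal sum 13298 to 13308 and 13429 to 13954 CPM), and their part in these results was not tested. Summed fibroblast markers were at 99.5 to 112 CPM in LPM(-)FGF10 and 130 to 136 CPM in LPM, with 1 of 2 tested lower.

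Cultures finished in CQ had far less mRNA of nearly the whole mitotic programme than cultures kept in LPM. Of the 60 genes 49 fell and 4 rose, against a background of 24.8% lower and 23.1% higher among all 13827 genes tested. The median log2 fold change was -2.24, against -0.07 over all genes. All 28 mitotic genes fell, with a median of -3.51 and a range of -5.80 to -0.71. Of the replication genes 13 of 17 fell and 1 rose (median -1.25), of the G1 genes 5 of 9 fell and 2 rose (median -0.71), of the transcription factors 2 of 4 fell and 1 rose, and of the inhibitors 1 of 2 fell.

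TOP2A fell to 2.29, 0.977 and 4.36 CPM in CQ, against 163, 136 and 127 CPM in LPM (log2 fold change -5.80, SE 0.38, adjusted p = 5.27e-06). CDK1 (chromosome 14, 64233945 to 64255290, plus strand) fell to 5.31, 0.855 and 2.15 CPM in CQ, against 82.9, 77.9 and 102 CPM in LPM (log2 fold change -5.00, adjusted p = 3.8e-05). CCNB1 (chromosome 16, 47338239 to 47348385, plus strand) fell to 6.86, 2.32 and 2.72 CPM in CQ, against 78.8, 79.0 and 91.9 CPM in LPM (log2 fold change -4.40, adjusted p = 1.67e-05). Every CQ library lay far below every LPM library in these genes, and the CQ libraries differed among themselves several-fold.

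MKI67 fell to 1.21, 6.47 and 0.126 CPM in CQ, against 91.8, 88.1 and 57.2 CPM in LPM (log2 fold change -4.90, SE 0.73, adjusted p = 0.000634), and its CQ libraries were spread widely. ANLN, a scaffold of the cytokinetic ring, fell more evenly to 7.0, 5.25 and 5.69 CPM in CQ, against 50.4, 53.7 and 39.1 CPM in LPM (log2 fold change -3.0, adjusted p = 5.11e-06). The mitotic genes that changed least were STMN1, a microtubule destabiliser (87.2 ± 9.68 CPM in CQ and 143 ± 27.4 CPM in LPM; log2 fold change -0.71), and the kinase AURKA (9.42 ± 0.691 and 17.8 ± 2.34 CPM; SD, n = 3 each; log2 fold change -0.92). AURKA shares exon positions with CSTF1 on the other strand.

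**Figure D4:**
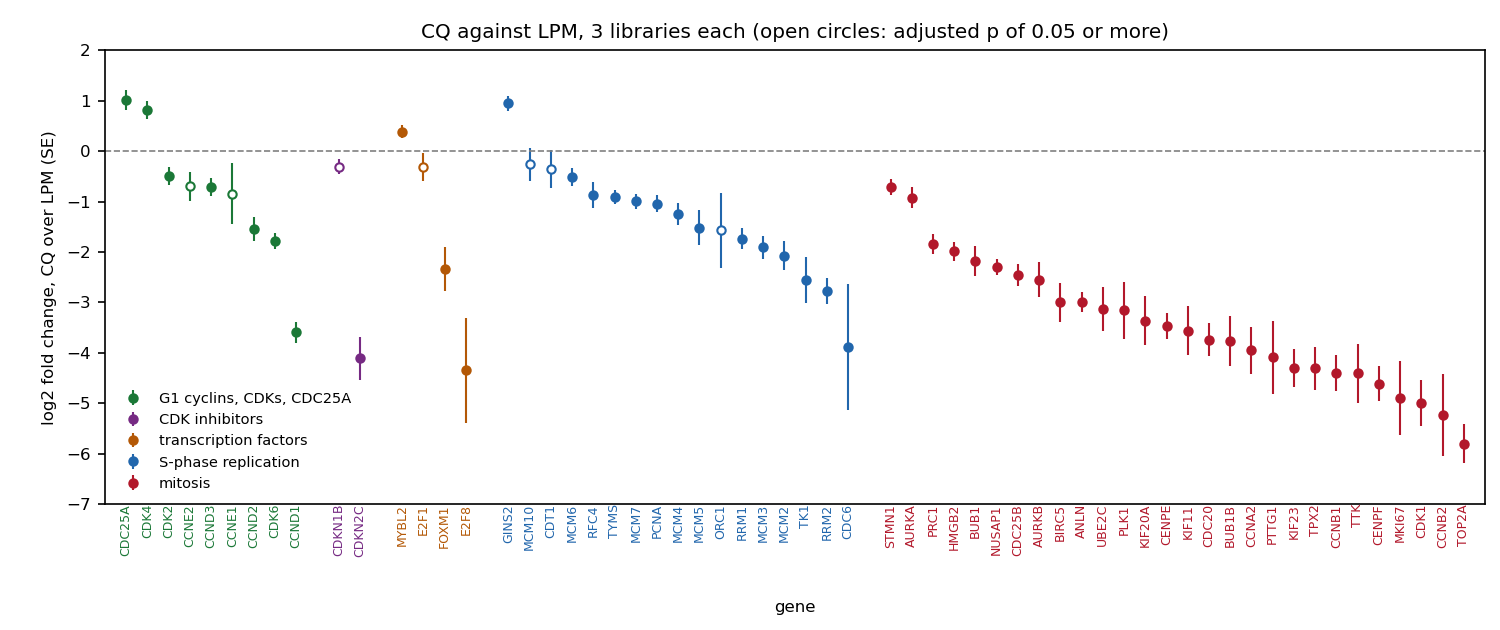
The log2 fold change of each of 60 genes in CQ over LPM is drawn with its SE, grouped by role and sorted, with open circles for genes that edgeR did not call. All 28 mitotic genes lie below zero, down to -5.80 for TOP2A, while CDC25A, CDK4, MYBL2 and GINS2 are the called genes above zero.

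The replication genes had the smaller median fall. PCNA fell to 29.0, 33.9 and 44.6 CPM in CQ, against 75.5, 68.1 and 77.7 CPM in LPM (log2 fold change -1.04, adjusted p = 0.00094). MCM2 fell to 6.79, 3.36 and 5.25 CPM in CQ, against 23.5, 19.5 and 21.7 CPM in LPM (log2 fold change -2.07, adjusted p = 0.000321). Within the helicase ring the subunits fell by different amounts, from -2.07 for MCM2 and -1.91 for MCM3 on the log2 scale to -0.99 for MCM7 and -0.51 for MCM6, and MCM6 was not called with library size scaling alone or without several single libraries. As a share of the 6 subunits per kilobase, MCM6 made up 33.7 ± 4.41% in CQ and 23.2 ± 0.597% in LPM, and MCM2 4.58 ± 1.77% and 9.01 ± 0.566% (SD, n = 3 each).

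Both subunits of ribonucleotide reductase, which makes deoxynucleotides, fell. RRM2 fell to 3.30, 4.58 and 6.64 CPM in CQ, against 34.1, 29.1 and 37.0 CPM in LPM (log2 fold change -2.78, adjusted p = 4.35e-05). RRM1 fell to 16.3, 9.71 and 15.6 CPM in CQ, against 47.4, 40.5 and 50.4 CPM in LPM (log2 fold change -1.74, adjusted p = 0.000195). GINS2, a subunit of the replicative helicase complex (chromosome 6, 3218655 to 3252740, plus strand), was the exception and rose to 66.9, 51.9 and 57.3 CPM in CQ, against 26.2, 31.0 and 34.1 CPM in LPM (log2 fold change 0.95, adjusted p = 0.000991). Its exons share positions with GSE1 on the other strand, and reads of the 2 genes cannot be told apart here. CDC6 was called lower on 10 counts in CQ (adjusted p = 0.0298), but not without any 1 LPM library. CDT1, ORC1 and MCM10 were not called.

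CCND1 (chromosome 2, 3621242 to 3633380, minus strand) changed most among the G1 genes. It fell to 7.47, 10.1 and 5.62 CPM in CQ, against 92.1, 102 and 85.2 CPM in LPM (log2 fold change -3.59, SE 0.21, adjusted p = 2.88e-06). CCND2 fell to 25.6, 16.4 and 24.8 CPM in CQ, against 67.5, 79.6 and 46.6 CPM in LPM (log2 fold change -1.54, adjusted p = 0.000739). CCND3 fell to 18.9 ± 3.03 CPM in CQ, against 30.9 ± 2.26 CPM in LPM (SD, n = 3 each; adjusted p = 0.00703). The share of CCND1 among the D-type cyclins per kilobase was 7.67 ± 3.51% in CQ and 26.8 ± 2.89% in LPM, and CCND2 made up most of the rest in both media, at 73.5 ± 6.36% and 63.8 ± 5.31%.

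The 2 kinases of the D-type cyclins moved in opposite directions. CDK6 (chromosome 9, 72510858 to 72765631, minus strand) fell to 47.8, 48.8 and 50.6 CPM in CQ, against 205, 171 and 134 CPM in LPM (log2 fold change -1.79, adjusted p = 2.97e-05). CDK4 (chromosome 5, 23039206 to 23041959, minus strand) rose to 133, 113 and 87.6 CPM in CQ, against 63.5, 52.4 and 72.9 CPM in LPM (log2 fold change 0.82, adjusted p = 0.00484). Neither gene's groups overlapped.

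CDC25A also rose, to 18.2, 19 and 21.6 CPM in CQ, against 10.7, 10.3 and 8.03 CPM in LPM (log2 fold change 1.02, adjusted p = 0.00293). CDK2 fell to 26.0 ± 6.08 CPM in CQ, against 36.9 ± 1.72 CPM in LPM (adjusted p = 0.046), and this call was lost with library size scaling alone and without several single libraries. CCNE1 had 1.01, 2.44 and 6.51 CPM in CQ and 6.69, 5.49 and 5.68 CPM in LPM. One CQ library lay within the LPM range, and CCNE1 was not called (adjusted p = 0.282).

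The inhibitors differed from each other. CDKN2C (chromosome 6, 161160290 to 161166681, minus strand) fell to 1.21, 0.488 and 0.695 CPM in CQ, against 12.5, 11.1 and 17.6 CPM in LPM (log2 fold change -4.11, adjusted p = 6.74e-05). CDKN1B had 47.4, 55.1 and 38.2 CPM in CQ and 59.8, 53.9 and 60.5 CPM in LPM, with overlap, and was not called (adjusted p = 0.128). Of 21 further regulators 5 rose and 6 fell. CDKN1A rose to 445 ± 34 CPM in CQ, against 227 ± 10.7 CPM in LPM (adjusted p = 6.43e-05), whereas CDKN1C, which encodes the inhibitor p57, fell to 6.36 ± 3.17 CPM in CQ, against 228 ± 24.1 CPM in LPM (log2 fold change -5.17, adjusted p = 2.61e-06). CDKN2D, an inhibitor of CDK4 and CDK6, fell to 15.3 ± 0.992 CPM in CQ, against 37.8 ± 1.76 CPM in LPM, and E2F4, an E2F that acts mainly as a repressor, rose to 50.1 ± 6.82 CPM in CQ, against 24.8 ± 1.68 CPM in LPM (SD, n = 3 each; adjusted p = 9.71e-05 and 0.000539).

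Among the transcription factors FOXM1 fell to 0.942, 1.22 and 2.28 CPM in CQ, against 8.12, 6.96 and 7.50 CPM in LPM (log2 fold change -2.34, adjusted p = 0.00231). E2F8, a repressor made late in the cycle, had 0, 0 and 1.77 CPM in CQ and 12.6, 13 and 11 CPM in LPM (adjusted p = 0.00819). It rested on 28 counts in CQ, and DESeq2 did not call it. MYBL2 was slightly higher in CQ, at 54.0, 51.1 and 42.5 CPM, against 38.8, 37.3 and 36.7 CPM in LPM (log2 fold change 0.39, adjusted p = 0.038). That call was lost in DESeq2, with the block, without a filter on low counts and without most single libraries. E2F1 had 10.2, 5.68 and 8.91 CPM in CQ and 10.5, 10.4 and 10.1 CPM in LPM, with overlap, and was not called (adjusted p = 0.37).

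Other mitotic genes fell as well. Of 37 further mitotic genes 36 fell, with CKAP2, a spindle protein, at 3.86 ± 0.526 CPM in CQ and 60.7 ± 3.64 CPM in LPM (adjusted p = 4.84e-07) and MAD2L1 at 13.3 ± 3.01 and 103 ± 11.5 CPM (adjusted p = 3.8e-06). In edgeR, DESeq2 and limma-voom 0 of the 37 rose, and 0 did at an unadjusted p under 0.05. Of 32 further replication genes 14 fell and 1 rose, with the single-strand binding subunit RPA3 at 5.21 ± 1.32 CPM in CQ and 19.7 ± 5.64 CPM in LPM (adjusted p = 0.000721), DUT, which clears dUTP, at 25.0 ± 5.30 and 61.6 ± 14.3 CPM (adjusted p = 0.00101), and GMNN, the inhibitor of origin licensing, higher at 40.1 ± 5.60 and 23.9 ± 2.93 CPM (SD, n = 3 each; adjusted p = 0.00479).

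The balance between mitosis and replication differed between CQ and the LPM libraries beside it. The summed mitotic genes came to 254, 231 and 270 CPM in CQ and 1624, 1589 and 1617 CPM in LPM, and the replication genes to 265, 285 and 277 CPM in CQ and 521, 487 and 550 CPM in LPM. The mitotic sum was therefore 0.914 ± 0.0901 times the replication sum in CQ and 3.11 ± 0.165 times in LPM (SD, n = 3 each). This ratio averaged 0.857 in LPM(-)FGF10, 0.977 in its LPM, 1.1 in passage 1 organoids and 1.12 in papillae. By this measure CQ lay near those groups, and the LPM libraries of the CQ set stood apart, although no test was made across sets. Basal epithelial markers moved in the same direction, with 5 of 6 lower in CQ and summed levels of 4282 to 4564 CPM in CQ and 5917 to 6356 CPM in LPM. KRT5 was the basal marker that was not called. Of 8 taste markers tested 1 rose and 4 fell (2137 to 2264 and 1467 to 1783 CPM summed), and GNAT3 and SHH had 0 counts in CQ. Of the fibroblast list the 1 gene tested, THY1, rose, and the list summed to 256 to 308 CPM in CQ and 7.55 to 9.86 CPM in LPM, while COL1A1, COL1A2, DCN, LUM and PDGFRB were at 0 in CQ. Suprabasal markers summed to 9.98 to 15.9 CPM in CQ and 67.3 to 81.1 CPM in LPM (1 of 4 lower; KRTDAP and CALML5 at 0), immune markers to 34 to 46.4 and 72.7 to 95.4 CPM (2 of 6 higher, 3 lower) and endothelial markers to 3.7 to 5.43 and 20.4 to 24.1 CPM (3 of 3 lower). The part of these markers, and of the lower depth and higher count variance in CQ, was not tested.

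Organoids in LPM occur in all 3 sets, and their mitotic level differed widely. On a scale set over all 22 libraries, the summed mitotic genes were at 306 to 2604 CPM in passage 1 organoids, 345 to 377 CPM in the LPM libraries of the FGF10 set and 1631 to 1691 CPM in those of the CQ set. The LPM libraries of the CQ set thus lay within the range of the passage 1 organoids, between pig 4 and the other 4 pigs, and far above those of the FGF10 set, while CQ, at 231 to 271 CPM, lay below LPM(-)FGF10, at 273 to 309 CPM. The G1 genes had another order, with 671 to 675 CPM in LPM of the FGF10 set, 644 to 658 CPM in LPM(-)FGF10, 457 to 652 CPM in passage 1 organoids, 453 to 538 CPM in LPM of the CQ set, 371 to 463 CPM in papillae and 254 to 284 CPM in CQ. No test was made across sets, since culture differs between them, and the CQ set also differs in annotation and counting version.

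Genes with the largest excess in the organoids of pig 4 were also among those that changed most in CQ. Over the 60 genes, the log2 ratio of pig 4's organoids to the median of the other organoids and the log2 fold change of CQ over LPM had Pearson's r = -0.60 and Spearman's rho = -0.68, as a description across genes, which are not independent. The 2 measures share no library, but both are taken over the same genes and both move with role: within the mitotic genes r was -0.57, within the replication genes -0.63 and within the 9 G1 genes 0.23. CCND1, CCND2 and CDK6 were low in CQ without being high in pig 4's organoids to a like degree (1.51, 0.778 and 0.824 times the median of the others), and CDK4 was higher in both (2.01 times in pig 4's organoids).

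**Figure D5:**
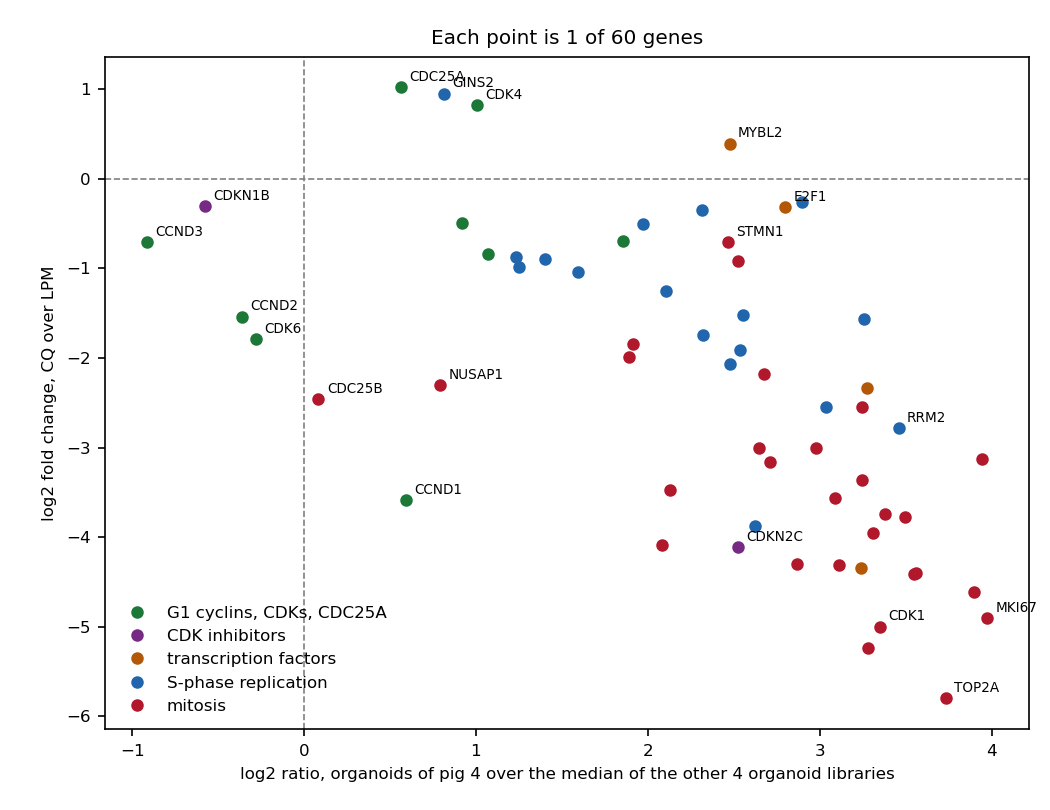
Each point is 1 of 60 genes, coloured by role: the log2 ratio of the organoids of pig 4 to the median of the other 4 organoid libraries (horizontal) and the log2 fold change of CQ over LPM (vertical). Mitotic genes such as MKI67 and TOP2A lie at the lower right, and most G1 genes lie to the left.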

How the data were processed

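RNA was sequenced from 5 passage 1 organoid cultures, 5 papillae, and 3 libraries each of LPM(-)FGF10, its LPM, CQ and its LPM. Tools named, with no role or order, in the submitters' processing notes are STAR 2.7.10b, featureCounts, DESeq2, FastQC 0.11.9 and MultiQC 1.14. The deposited values are raw gene-level counts of read pairs. The authors' counter was featureCounts 2.0.3 (16 libraries) or 2.0.6 (the CQ set), per the file headers, without strand and not normalized. Pairs overlapping several genes were counted for each and multi-mapping pairs were not counted, so overlapping genes share counts. Libraries held 14667093 to 27767229 counts. Gene positions equalled those of the Sscrofa11.1 RefSeq table for 60 of 60 genes, and 13 of them share exon positions with another gene.

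Here each comparison was fitted on its 2 groups with edgeR 4.0.16 in R 4.3.3 (TMM, filterByExpr, quasi-likelihood test, 2-sided, Benjamini-Hochberg over all genes, called at an adjusted p under 0.05), a script checked on simulated data. All 60 genes passed the filter in each comparison. In the CQ set the 1 entry without a gene name, 0.326% to 0.477% of counts, was left out. CPM were scaled per comparison, or over all 22 libraries where stated, and 0.5 was added before log2 in descriptions. Alternatives were library size alone, DESeq2 1.42.0 size factors or test, limma 3.58.1 voom, no filter, at least 50 counts, each library left out and a replicate block. Leaving out both libraries of pig 4 was added after seeing the data.

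The pig numbers pair organoids with papillae, since the labels give both to the same animal, although deviations from the group means correlated only at 0.036 to 0.110. The members and lists were chosen with earlier results of these data known. Values in every sample are given for a fixed set of genes (among them MKI67, PCNA, CCND1 and E2F1) and for up to 2 called genes with the smallest p per class and direction, and from each pathway list up to 2 per direction. CDK6 in the organoid comparison, PLK1 and others outside this rule were chosen after their values were seen. One marker list is not reported here.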

Additional observations from a re-analysis of the deposited data

Results flagged for a closer look

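The values given one by one here belong to the organoids of pig 4, which lay apart from the other 4 organoid libraries by Dixon's test, a level that chance passes in about 1 in 20 groups. CCND2, at 31.4 CPM, stood apart as the lowest organoid library. On the high side stood CCNE1 at 15.2 CPM, E2F1 at 79.6 CPM, MYBL2 at 195 CPM, PCNA at 127 CPM, RRM2 at 121 CPM, MKI67 at 283 CPM, TOP2A at 283 CPM, CDK1 at 69.2 CPM and CCNB1 at 80.4 CPM. The summed transcription factors, at 326 CPM, replication genes, at 1591 CPM, and mitotic genes, at 2452 CPM, stood apart in the same library. Over the 60 genes 44 were set apart in these organoids, 43 of them high, against 4.44% of all genes tested, and 2 genes were set apart in a papilla, 1 each in pigs 2 and 3.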

How the results depend on the processing

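Against 17 genes that rose and 1 that fell in organoids, leaving out both libraries of pig 4 gave 11 and 7, the same with the pig as a block gave 10 and 10, limma-voom gave 10 and 3, and the replicate block over all pigs gave 10 and 2. Leaving out 1 library gave 11 to 24 that rose and 1 to 7 that fell. For LPM(-)FGF10 the 3 genes that fell became 8 without a filter on low counts and 1 to 5 without 1 library. In CQ leaving out 1 library left 3 to 4 that rose and 45 to 50 that fell.

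Log2 fold changes whose sign turned between organoids and papillae are given in the order both pig 4 libraries out, the same with the block, limma-voom, and the block alone. E2F1 was at -0.50, -0.80, -0.08 and -0.18, MCM2 at -0.33, -0.72, -0.05 and -0.11, RRM2 at -0.74, -1.30, -0.43 and -0.56, and MKI67 at -1.29, -1.72, -0.74 and -0.94. TOP2A was at -0.17 and -0.47 and CCNB1 at -0.01 and -0.21 in the first 2 settings, and CDKN1B at 0.16 with library size alone. Without 1 library the ranges were -0.42 to 0.93 for E2F1, -0.25 to 0.89 for MCM2, -0.67 to 0.91 for RRM2, -1.21 to 1.07 for MKI67, -0.19 to 1.90 for TOP2A, -0.03 to 1.90 for CCNB1 and -0.20 to 0.00 for CDKN1B. For LPM(-)FGF10 they were -0.08 to 0.02 for CDKN1B, -0.22 to 0.05 for E2F1, -0.25 to 0.01 for MCM2 and -0.01 to 0.18 for PCNA. The cause was not tested.

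Whether equal replicate numbers mark paired libraries is not given for the FGF10 set (correlations of -0.046 to 0.047) or the CQ set (-0.008 to 0.021). These correlations cannot decide it, since organoids and papillae of the same pig reached only 0.036 to 0.110. With those numbers as a block 3 genes fell in LPM(-)FGF10, and 3 rose and 50 fell in CQ. Some genes had few counts in CQ, among them E2F8 with 28 and CDC6 with 10, which limits the precision of their values.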
